A study of Mus musculus with 4 samples.

Results

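The Notch pathway genes Notch1, Notch2, Rbpj, Maml1, Maml2, Hes1, Nrarp and Dtx1 were followed in activated lung group 2 innate lymphoid cells (ILC2s), lymphocytes without antigen receptors that answer the epithelial cytokine IL-33 with type 2 cytokines. The genes were taken by symbol from the deposited tables, and all 8 were found both among the 22558 genes of the table of estimated counts and among the 18324 of the table of normalized counts. Of the 8, Dtx1 alone passed the test between genotypes, at 2.15 times its WT level, and that call did not hold in any fit that left out a library. Rbpj, Hes1, Nrarp and Maml2 lay lower in the pair of libraries labelled ICAM-1 KO (KO-labelled from here on) than in the WT pair, without passing the test. Such a gap was common, and 31.3% of all genes tested had both KO-labelled libraries below both WT libraries.

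Notch receptors are cut at the membrane after a ligand on a neighbouring cell has pulled on them. The freed intracellular part enters the nucleus, joins the DNA-binding protein RBPJ and a Mastermind-like coactivator, and turns RBPJ from a repressor into an activator of target genes such as Hes1, Nrarp and Dtx1. In lymphocytes the pathway is known for committing progenitors to the T cell lineage, and Notch signals also act early in ILC2 development.

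The WT group was 2 libraries of C57BL/6 mice, and the other group was 2 libraries labelled ICAM-1 KO on the C57BL/6 background, which the study names as B6.129S4-Icam1tm1Jcgr/J mice. All mice were 6 weeks old per the labels and were given 0.5 µg rmIL-33 through the nose 3 times, and each library was a pool of the lung ILC2s of 4 mice, sorted on day 4 as lineage-negative CD45+ ST2+ CD127+ cells. Nothing in these libraries shows the spread between single mice, and there was no group without IL-33, so a response of the pathway to IL-33 could not be examined. The study asked with these libraries how the lack of ICAM-1 alters activated ILC2s.

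Between 24796148 and 28782471 estimated counts fell on genes per library. Icam1, the targeted gene, had counts of 2579 and 2630 in WT and 2812 and 3453 in the other group, so its RNA was not lower there. Counts summed over a gene cannot show whether the targeted exons are missing, so they do not check the genotype, and every direction below rests on the labels. ILC2 genes were abundant in all libraries, with a summed normalized count of 7767 and 8290 over 14 ILC2 markers in WT and of 6943 and 7001 in the KO-labelled libraries, and no marker of that list was at 0. Markers of other cells were present too, and of 48 tested 30 were higher and 2 lower in the KO-labelled libraries. Over all genes tested, 8.8% were higher and 4.97% lower. In a sorted bulk sample, fewer cells of a type and less RNA per cell cannot be told apart.

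In the mm10 build, Notch1 occupies 26457903 to 26516663 of chromosome 2 (minus strand) and Notch2 occupies 98013527 to 98150361 of chromosome 3 (plus strand). Rbpj spans 53466152 to 53657362 on the plus strand of chromosome 5, where Dtx1 lies on the minus strand from 120680202 to 120711927. Nrarp is on chromosome 2 from 25180758 to 25183339 (plus strand), Hes1 on chromosome 16 from 30064384 to 30067796 (plus strand) and Maml1 on chromosome 11 from 50255634 to 50292311 (minus strand). Maml2 lies on chromosome 9 from 13297957 to 13709388 (plus strand), with its end 7.31 Mb before the start of Icam1, the gene targeted in this line. DNA around a targeted gene can come from the strain of the targeted cells, and whether this bears on the count of Maml2 was not tested.

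Promoter sequences of the members are shown because RBPJ binds DNA at a short core, spelled TGGGAA here and TTCCCA on the other strand, and because Rbpj and the target genes Dtx1 and Nrarp are the members around which the comparison below turns. RefSeq promoters of build GRCm38.p6 were given for 7 of the 8 members, all but Hes1, as 9 entries, and the 250 bases before each start were searched on both strands. Capitals mark matches to the core. The Rbpj window is chr5:53590096-53590345 on the plus strand, the Dtx1 window chr5:120711670-120711919 on the minus strand and the Nrarp window chr2:25180508-25180757 on the plus strand, each written 5′ to 3′ along its gene.
Rbpj: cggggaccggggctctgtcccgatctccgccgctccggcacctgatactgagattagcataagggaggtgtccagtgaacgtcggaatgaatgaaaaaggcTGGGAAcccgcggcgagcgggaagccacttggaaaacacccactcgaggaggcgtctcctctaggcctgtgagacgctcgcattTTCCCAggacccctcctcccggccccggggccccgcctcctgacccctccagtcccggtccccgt
Dtx1: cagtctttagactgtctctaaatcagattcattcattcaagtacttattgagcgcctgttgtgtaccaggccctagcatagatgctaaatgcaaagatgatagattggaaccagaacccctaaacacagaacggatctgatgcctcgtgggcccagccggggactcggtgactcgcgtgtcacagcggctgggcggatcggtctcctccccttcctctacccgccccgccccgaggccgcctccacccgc
Nrarp: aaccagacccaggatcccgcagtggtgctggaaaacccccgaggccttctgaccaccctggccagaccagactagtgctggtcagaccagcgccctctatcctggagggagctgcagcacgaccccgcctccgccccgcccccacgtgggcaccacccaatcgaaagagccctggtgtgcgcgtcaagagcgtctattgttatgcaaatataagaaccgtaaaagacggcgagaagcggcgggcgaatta

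The printed Rbpj window held 2 matches, which begin 149 and 65 bases before its RefSeq start. The window of a later Rbpj start holds the second of them too, 205 bases before that start. The Rbpj and Notch1 windows lie inside the gene spans given above, and no window at the outer 5′ end of either gene was searched. A further match lay 145 bases before the inner of the Maml2 starts, on the reverse strand. These letters were not in the windows of Dtx1, Nrarp, Notch1, Notch2, Maml1 or the outer Maml2 start. Of all 32851 RefSeq promoters, 21.6% hold the core within the same window, so a match is common, and 3 of the members' 9 windows hold it.

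Per length of its exons, Rbpj was the most abundant member. Its level was 33.3 and 32.1 CPM (counts scaled to the library total) per kilobase of exon in WT and 29.4 and 26.8 in the KO-labelled libraries, and its mean level stood at percentile 82.5 of the genes tested. Hes1, a repressor that many tissues use as a direct Notch target, followed with levels of 25.4 and 29.9 in WT and 24.5 and 23.6 in the other group. By this measure the ranges of Rbpj and Hes1 overlap over the 4 libraries, although Rbpj was above Hes1 within each library. Per longest transcript their mean levels were further apart, at 70.7 and 35.8. Notch2 came next, with levels between 8.40 and 12.0, apart from both its neighbours in the order.

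Nrarp, which encodes a small ankyrin-repeat feedback inhibitor of the Notch complex, and Notch1 had mean levels of 3.13 and 3.08. They could not be ranked against each other per length of all exons, and per longest transcript Notch1 (4.62) was above Nrarp (3.13). Maml2 had a mean level of 2.19 CPM per kilobase of exon, Dtx1 one of 1.74 and Maml1 one of 0.941, and each of these 3 overlaps its neighbour in the order. The order of Maml2 and Dtx1 turned between the groups. Maml2 was above Dtx1 in both WT libraries (2.05 and 2.95 against 1.37 and 0.804), and Dtx1 was above Maml2 in both KO-labelled libraries (2.46 and 2.30 against 1.83 and 1.94). Maml1 was at percentile 6.19 of the genes tested. Between the receptors, Notch2 exceeded Notch1 per length in every library, by 4.21 and 3.02 times in WT and by 3.65 and 2.28 times in the KO-labelled libraries. Between the coactivators, the level of Maml2 was 1.96 and 3.67 times that of Maml1 in WT and 1.70 and 2.34 times in the other group. Both ratios overlap between the groups.

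**Figure D1:**
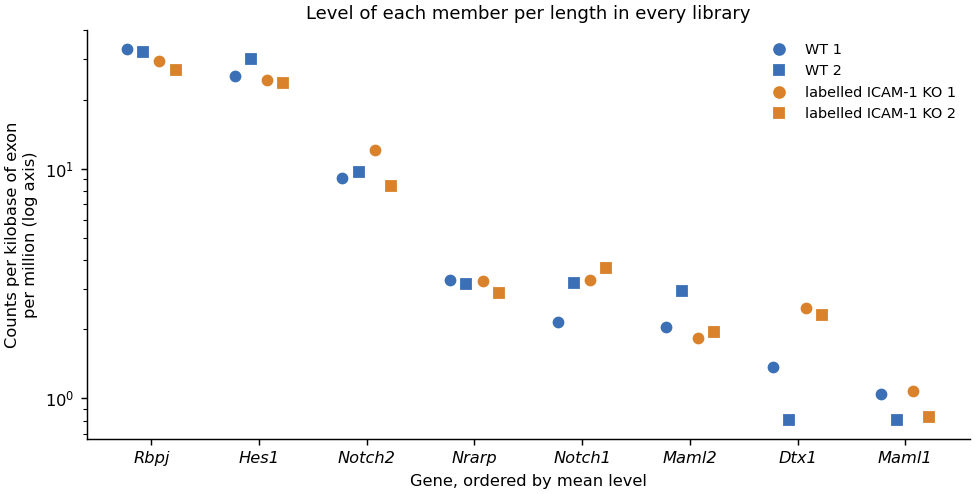
Level of each member in CPM per kilobase of exon (log axis), 1 point per library, with genes ordered by their mean level. Rbpj and Hes1 stand highest and Maml1 lowest, and the points of Dtx1 for the KO-labelled libraries (2.46 and 2.30) lie above its WT points (1.37 and 0.804).

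Levels between genotypes are given as normalized counts, where each value is the estimated count plus 1 times a factor for the library. The edgeR test used the rounded estimated counts of all 11711 genes that passed the limits on low values. All 8 members passed those limits. Of the genes tested, 8.8% were higher in the KO-labelled libraries at an adjusted p under 0.05 and 4.97% were lower. Among the 8 members, 1 was higher and 0 were lower, and an unadjusted p under 0.05 was found for 1 higher and 1 lower member, Dtx1 and Rbpj. DESeq2, a further count test, called 1 member higher and 1 lower. Of all 11711 genes tested, 3542 had an unadjusted p under 0.05 with edgeR, and DESeq2 called 1261 higher and 930 lower. With edgeR and a change of at least 2-fold asked for as well, 4.94% of all genes were higher and 0.538% lower, against the same 1 and 0 of the members. The median log2 fold change was -0.05 over the members and 0.01 over all genes tested.

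The groups did not overlap for 5 of the 8 members, 1 of them higher and 4 lower in the KO-labelled libraries. Over all genes tested, 28.3% had both KO-labelled libraries above both WT libraries and 31.3% had both below, so genes without overlap were common in these data.

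**Figure D2:**
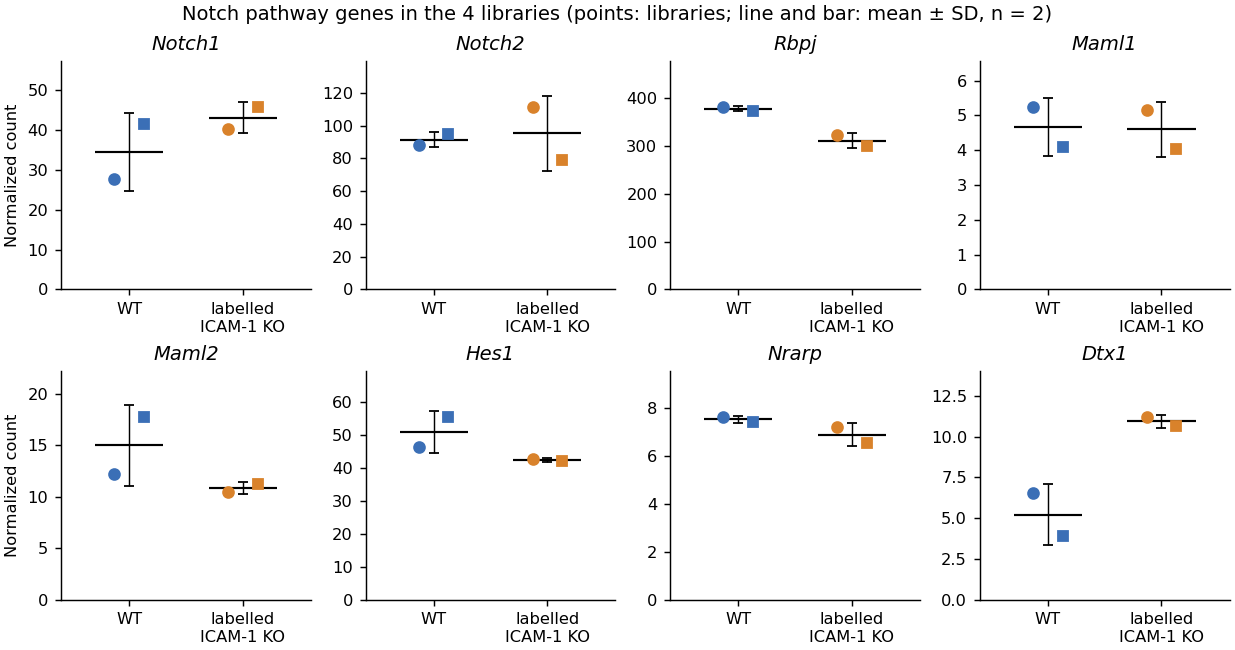
Normalized count of each member in the 4 libraries (circles: replicate 1, squares: replicate 2, black line and bar: mean ± SD, n = 2), with every axis starting at 0. Dtx1 is apart between the groups at 3.89 and 6.54 against 10.6 and 11.2, whereas the points of Notch1, Notch2 and Maml1 overlap.

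Dtx1 encodes Deltex-1, an E3 ubiquitin ligase that binds the intracellular part of Notch and is itself a Notch target in lymphocytes. It had counts of 197 and 122 in WT and 322 and 333 in the KO-labelled libraries. Its normalized count was 6.54 and 3.89 in WT (5.22 ± 1.87, SD, n = 2) and 11.2 and 10.6 in the other group (10.9 ± 0.403, SD, n = 2). Both KO-labelled libraries therefore lay above both WT libraries, and the WT libraries differed from each other by 1.68 times. Its log2 fold change with edgeR was 1.10 with a standard error of 0.313 (adjusted p = 0.0485), with a 95% interval from 0.39 to 1.81.

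This call was at the edge of the threshold. Without any single library it was not made, with adjusted p-values of 0.0537 without WT 1, 0.192 without WT 2, 0.103 without ICAM-1 KO 1 and 0.0818 without ICAM-1 KO 2, while the log2 fold change stayed between 0.77 and 1.52. The adjusted p rose to 0.122 when no low counts were filtered out and was 0.0775 with the older form of the test, 0.0546 with at least 10 counts in every library, 0.0528 with limma and 0.0209 with DESeq2.

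Many markers of other cells were higher in the KO-labelled libraries, as Dtx1 was, beside 8.8% of all genes tested higher and 4.97% lower. Of 6 B cell markers tested, 4 were higher in the KO-labelled libraries and 0 lower, and their summed normalized count was 230 and 377 in WT and 566 and 682 in the other group. Of 8 T cell markers, 5 were higher and 0 lower, with sums of 316 and 408 in WT and of 665 and 819. All 10 endothelial markers were higher, with sums of 259 and 246 in WT and of 598 and 599.5. No marker of these lists was at 0 in both libraries of a group. The sort took CD45+ cells and left out those stained for CD3ε, CD4, CD5, TCRβ or CD45R, a gate meant to remove endothelium, T cells and B cells. The part of these cells in the count of Dtx1 was not tested.

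**Figure D3:**
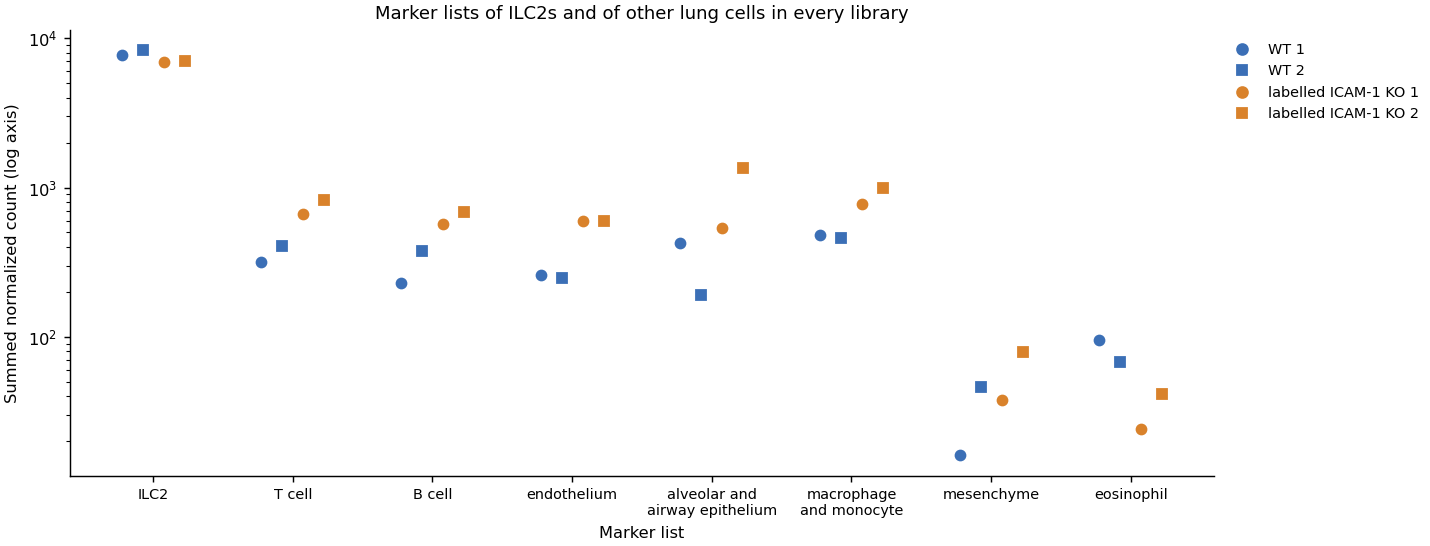
Summed normalized count of each marker list per library (log axis, circles: replicate 1, squares: replicate 2). The T cell, B cell, endothelial, epithelial and macrophage lists are higher in both KO-labelled libraries than in both WT libraries. The eosinophil list is lower in both, the ILC2 list is slightly lower in both, and the mesenchymal list overlaps.

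The other lists were as follows. Of 8 alveolar and airway epithelial markers, 4 were higher and 0 lower, with sums of 428 and 190.5 in WT and of 534 and 1354 in the KO-labelled libraries. Of 7 macrophage and monocyte markers tested, 5 were higher and 0 lower (479 and 458 against 775 and 988). Of 5 mesenchymal markers tested, 0 passed with edgeR or DESeq2 and 1 was higher at an unadjusted p under 0.05 (sums of 16.0 and 46.1 against 37.5 and 79.0). Of 4 eosinophil markers tested, 2 were higher and 2 lower, Epx being at 0 in both KO-labelled libraries (95.2 and 68.2 against 24.1 and 41.5). Of the 14 ILC2 markers, 2 were higher and 4 lower, beside 8.8% and 4.97% of all genes tested.

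Rbpj encodes the DNA-binding protein through which all Notch receptors act. It had counts of 11556 and 11792 in WT and 9292 and 9392 in the KO-labelled libraries, the most of any member. Its normalized count was 382 and 373 in WT (377 ± 5.73, SD, n = 2) and 323 and 299 in the other group (311 ± 16.5, SD, n = 2). Both KO-labelled libraries were below both WT libraries, and the replicates of each group differed by at most 1.08 times. The log2 fold change was -0.25 (standard error 0.0827, unadjusted p = 0.0134, adjusted p = 0.0738 with edgeR), with a 95% interval from -0.44 to -0.07. Rbpj did not pass with edgeR in any setting, and it passed with DESeq2 (adjusted p = 0.0274).

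A processed pseudogene, Rbpj-ps3, carried 4.61% and 6.07% as many counts as Rbpj in WT and 5.91% and 4.91% in the other group, and reads that fit both can be split between them. With the counts of the pseudogene added, the log2 fold change of Rbpj was -0.25 (adjusted p = 0.0756 with edgeR). No gene shares exon bases with Rbpj.

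Maml1 and Maml2 encode Mastermind-like coactivators that complete the Notch complex on DNA. Maml2 had counts of 369 and 560 in WT and 300 and 352 in the KO-labelled libraries, or normalized counts of 12.2 and 17.8 against 10.4 and 11.2. The groups did not overlap, but WT 2 stood 1.45 times above WT 1, and the log2 fold change of -0.44 did not pass (standard error 0.257, adjusted p = 0.282, 95% interval from -1.02 to 0.14). Maml1 had counts of 158 and 128 in WT and 148 and 126 in the other group. Its normalized counts of 5.25 and 4.08 against 5.17 and 4.05 overlap, and its log2 fold change was 0.01 with an interval from -0.79 to 0.80, so folds from 0.579 to 1.74 lie within it.

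Notch1 and Notch2 encode the receptors through which most lymphocyte Notch signals pass. Notch1 had counts of 836 and 1309 in WT and 1162 and 1438 in the KO-labelled libraries. Its normalized count was 27.6 and 41.5 in WT (34.6 ± 9.78, SD, n = 2) and 40.4 and 45.8 in the other group (43.1 ± 3.86, SD, n = 2). WT 2 lay between the KO-labelled libraries, and the log2 fold change of 0.35 did not pass (adjusted p = 0.269, 95% interval from -0.10 to 0.79). Without WT 1 it was 0.08 and without WT 2 it was 0.67, neither past the threshold.

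Notch2 had counts of 2667 and 2992 in WT and 3212 and 2486 in the KO-labelled libraries. The latter, at normalized counts of 112 and 79.2, lay above and below both WT libraries, at 88.1 and 94.8. Its log2 fold change was 0.08 (adjusted p = 0.752, 95% interval from -0.25 to 0.42). Gm42820, a gene on the same strand, shares 541 exon bases with Notch2 and had between 43.6 and 113 counts, and how reads were split between them is uncertain. The genes on the other strand that overlap exons of Notch1 had at most 14.2 counts.

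Hes1 had counts of 1409 and 1755 in WT and 1235 and 1318 in the KO-labelled libraries, or normalized counts of 46.6 and 55.6 against 42.9 and 42.0. Both KO-labelled libraries were lower, and the gap between the groups was smaller than that between the WT libraries. Hes1 had a log2 fold change of -0.24 with a standard error of 0.136 (adjusted p = 0.271, 95% interval from -0.55 to 0.07). Nrarp had counts of 230 and 233 in WT and 207 and 204 in the other group. With normalized counts of 7.63 and 7.41 against 7.22 and 6.54 its groups did not overlap, and its log2 fold change of -0.10 did not pass (adjusted p = 0.84, 95% interval from -0.74 to 0.53). An antisense gene, Gm38287, shares 2051 exon bases with Nrarp but had at most 8.62 counts. Of the 3 Notch targets among the members, Dtx1 was thus higher and Hes1 and Nrarp lay slightly lower, and a difference between targets was not tested.

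**Figure D4:**
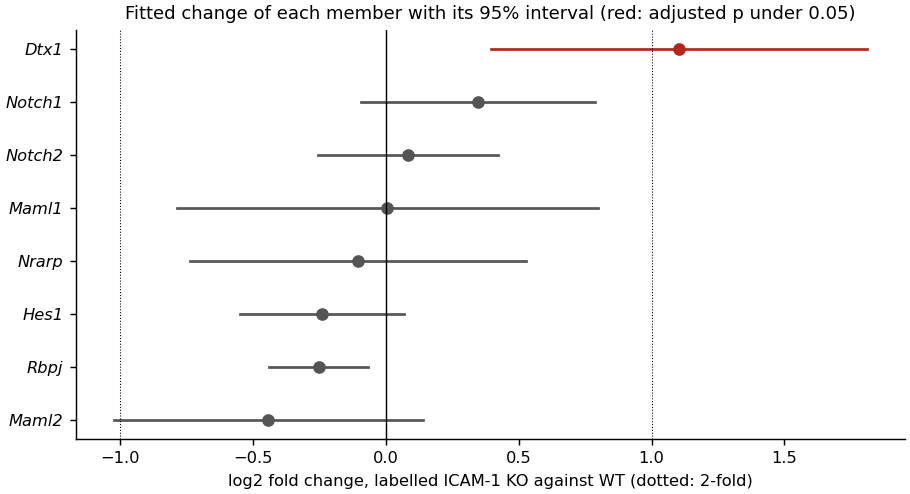
Fitted log2 fold change of each member between the KO-labelled libraries and WT (point) with its 95% interval (line), red where the adjusted p was under 0.05. Dtx1 at 1.10 is the member past the threshold, and the interval of Rbpj, from -0.44 to -0.07, also lies to one side of 0 before adjustment.

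The rest of the pathway was described with a list of 67 genes that includes the members, of which 59 were tested. Dll3, Hes5 and Hey2 were not found by symbol among the genes with estimated counts, and Notch3, Aph1c, Numbl, Heyl and Ptcra did not reach the limits on low values. Of the 59, 6 were higher, 6 were lower and 47 did not pass, and the median log2 fold change was 0.08. The 12 that passed are 20.3% of those tested, beside 13.8% of all genes tested. By direction, 8.8% of all genes tested were higher and 4.97% lower, the background for the counts by role below.

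Among 3 receptors and 4 ligands tested, Notch4 and Dll4 were higher and Jag1 was lower. Notch4, best known from endothelium, rose from normalized counts of 4.16 and 3.77 in WT to 13.8 and 10.2 in the KO-labelled libraries (log2 fold change 1.63, adjusted p = 0.0115). Dll4, a ligand also known from endothelium, rose from 3.04 and 1.61 to 8.85 and 15.3 (log2 fold change 2.44, adjusted p = 0.00941). Jag1 fell from 21.6 and 24.7 to 9.37 and 11.5 (log2 fold change -1.12, adjusted p = 0.0125) and was the most abundant ligand per length in WT, at a mean of 4.39 CPM per kilobase. In the KO-labelled libraries its mean level of 2.06 was below those of Dll1 at 2.77 and Dll4 at 3.59. Without WT 1 or WT 2 the adjusted p of Notch4 was 0.0501 and 0.0595, and without WT 2 that of Dll4 was 0.0594 and that of Jag1 0.0657. With no low counts filtered out, the adjusted p of Dll4 was 0.0544. The rise of the endothelial markers is given above, and its part in the counts of Notch4 and Dll4 was not tested.

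Of 14 genes of receptor processing tested, 2 were lower and 0 higher. Furin, the protease that makes the first cut in Notch receptors and the most abundant gene of this group, fell from 1151 and 1022 to 698 and 729 (log2 fold change -0.58, adjusted p = 0.00538). Ncstn, which encodes the gamma-secretase subunit nicastrin, fell from 130 and 141 to 84.6 and 84.9 (log2 fold change -0.65, adjusted p = 0.00459). The other 12 did not pass, and DESeq2 called 3 of the 14 lower and 0 higher (1 higher at an unadjusted p under 0.05 with edgeR). Both kept their calls without any single library. Gm44851, on the other strand, shares 118 exon bases with Furin and had counts of 2844 and 2244 in WT and 1709 and 2042 in the other group. Copa, on the strand opposite Ncstn, shares 195 exon bases with it and had between 9461 and 9833 counts, and how reads in the shared bases were assigned is uncertain.

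In the nuclear complex, 0 of 9 genes passed with edgeR, Rbpj being the most abundant. At an unadjusted p under 0.05 with edgeR, 2 of the 9 were higher and 1 lower, and DESeq2 called 1 higher and 1 lower. The counts over all genes tested for both are given above with the members. Of 9 corepressor genes, Tle1 rose and Tle3 fell. Both encode Groucho-related corepressors that HES proteins recruit. Tle1 went from normalized counts of 9.90 and 12.3 to 27.8 and 26.7 (log2 fold change 1.32, adjusted p = 0.00462). Tle3 went from 63.1 and 66.7 to 14.6 and 15.6, at a log2 fold change of -2.07 with a standard error of 0.144 (adjusted p = 0.000136), the largest fall in the list. Both kept their calls without any single library. Ctbp1, the most abundant of this group, had a log2 fold change of -0.09 (adjusted p = 0.565).

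Of 12 ubiquitin ligases and endocytic regulators tested, Dtx1 alone passed. Dtx3, the most abundant of them per length of all exons but not per longest transcript, where Nedd4 was above it (32.7 against 26.7 CPM per kilobase), had a log2 fold change of 0.31 (adjusted p = 0.191), and the median of this group was 0.50. Of 9 targets tested, 3 were higher and 2 lower, and the rise of Tcf7 had been seen before the list was chosen. Besides Dtx1, Hey1 rose from 14.99 and 16.0 to 24.6 and 24.3 (log2 fold change 0.69, adjusted p = 0.0376), and Tcf7, which encodes TCF-1, had a log2 fold change of 1.13 (adjusted p = 0.0029). Myc fell from 88.0 and 78.7 to 55.7 and 63.8 (log2 fold change -0.45, adjusted p = 0.0417), and Il2ra, the gene of the IL-2 receptor alpha chain, fell from 699 and 836 to 536 and 524 (log2 fold change -0.51, adjusted p = 0.0133). Gata3, the factor that defines ILC2s, had the highest mean level per length of the targets over the 4 libraries, although Il2ra was above it in the WT mean (148 against 143 CPM per kilobase). It had a log2 fold change of -0.14 (adjusted p = 0.363). These target genes are known to answer to many other signals too. The T cell and endothelial markers given above were also higher in the KO-labelled libraries, and their part in the counts of Hey1 and Tcf7 was not tested. Hey1 lost its call without each library in turn (adjusted p from 0.0938 to 0.123), Myc without each except ICAM-1 KO 2 (up to 0.185) and Il2ra without WT 2 (0.0786). With no low counts filtered out, adjusted p-values were 0.0918 for Hey1 and 0.103 for Myc.

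**Figure D5:**
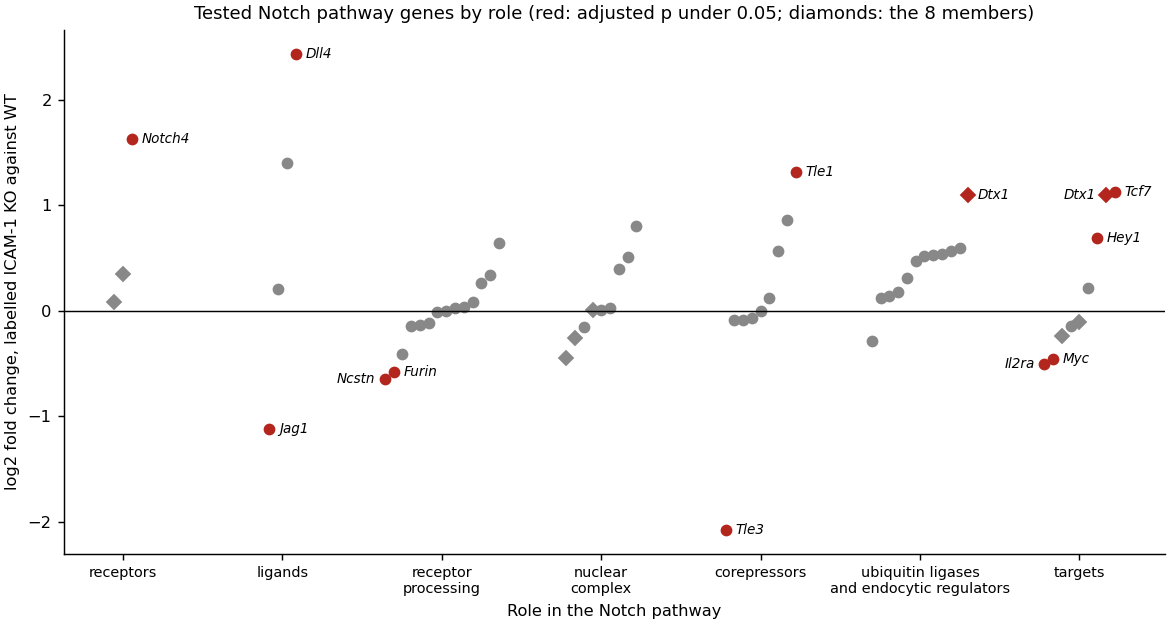
Log2 fold change of the tested Notch pathway genes between the KO-labelled libraries and WT by role, 1 point per gene and role, red and named where the adjusted p was under 0.05, with diamonds for the 8 members. Tle3 at -2.07 and Dll4 at 2.44 are the extremes, and Dtx1 appears both as a ubiquitin ligase and as a target.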

How the data were processed

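RNA of sorted lung ILC2s was sequenced from 2 WT and 2 ICAM-1 KO pools, grouped by sample titles. The authors mapped reads to mm10 (STAR, GENCODE M20 annotation) and deposited expected counts per gene from Partek, which shares out reads of ambiguous origin, and an upper quartile normalized signal. In the latter each value equals the count plus 1 times 1 factor per library. Whether counting used strand is not given in the sources used here.

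Counts were rounded and tested with edgeR 4.0.16 in R 4.3.3 (upper quartile factors, glmQLFit with legacy set to FALSE, glmQLFTest, no covariate). A gene was tested if its normalized counts averaged 1 or more and summed to 10 or more, which 11711 genes met, and Benjamini-Hochberg adjustment ran over all of these. Standard errors and 95% intervals came from the log2 fold change, its F statistic and the degrees of freedom, and intervals are not adjusted. The test was checked on counts drawn with known changes. Exon lengths came from GENCODE M21. Dtx1, Nrarp and Maml1, the members with the fewest counts, had standard errors of 0.279 to 0.35, against 0.0827 for Rbpj, and both depth and the spread between pools enter these.

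All members were named, with every pathway gene that passed and the most abundant of each role. The members and lists were chosen with earlier results of these data known, and the rise of Tcf7 and of other-cell markers had been seen before. Libraries are pools, so p-values refer to pools and not to single mice. With 2 libraries per group, edgeR drew much of each gene's spread from the other genes. The members' tests had about 8.97 degrees of freedom, most of them beyond what the libraries alone can give. Their standard errors and intervals thus rest mostly on other genes. Alternatives were TMM factors, DESeq2 1.42.0, limma 3.58.1 on log2 normalized counts, the older edgeR test, other filters, a replicate block and leaving out each library.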

Additional observations from a re-analysis of the deposited data

How the results depend on the processing

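The call of Dtx1 was kept with TMM factors, with DESeq2 and with the replicate block. The count of members called higher, 1 as reported, was 0 with the older edgeR test, without a filter on low counts, with at least 10 counts in every library and with limma, and it was 0 to 0 when each library was left out in turn. DESeq2 called 1 member lower, Rbpj. Over all genes, 334 were higher and 201 lower without a filter, DESeq2 called 930 lower, and leaving out a library gave 479 to 948 higher and 158 to 388 lower. In the pathway list, 3 were higher without a filter, and leaving out a library gave 2 to 7 higher and 3 to 6 lower, the lowest without WT 2. The log2 fold change of Maml1 turned to -0.040 without a filter, to -0.018 with limma and to -0.00062 with DESeq2, and lay between -0.17 and 0.20 without a library, and that of Notch2 lay between -0.17 (without ICAM-1 KO 1) and 0.30. The longest transcript in place of all exons raised the mean level of Notch1 to 4.62, of Rbpj to 70.7 and of Hes1 to 35.8 CPM per kilobase. The order changed with it, with Notch1 above Nrarp (3.13) and Dtx1 (2.267) just above Maml2 (2.261). Notch2 was at 10.0 by that measure, so its mean excess over Notch1 was smaller than per length of all exons. The cause of these shifts was not tested, apart from the fewer samples or other lengths by construction.

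The groups share replicate numbers, and same-numbered libraries did not deviate together over the genes tested (correlation of deviations -0.0663). With 2 libraries per group this check cannot exclude a shared sort or batch. With the replicate block, 1077 genes were higher and 638 lower, and 1 member was higher and 0 lower. When a library was left out, the lone library of its group was assumed to vary like the other group. The addition of Rbpj-ps3 was chosen after seeing the data. Counting error is largest, relative to the level, for Maml1, Nrarp and Dtx1, which had the fewest counts.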
